A study of Mus musculus with 6 samples.

Results

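The regulators of mitochondrial biogenesis described here are 10 genes, chosen by symbol from the 54532 genes of the deposited table: the coactivators Ppargc1a, Ppargc1b and Perm1, the nuclear receptors Ppara, Esrra, Esrrb and Esrrg, the transcription factors Nrf1 and Gabpa, and the mitochondrial DNA-binding factor Tfam. All 10 were found and all 10 passed a filter of a mean of at least 1 FPKM (fragments per kilobase of transcript, scaled to library depth) over the libraries. Messenger RNA was sequenced from hearts of Ythdc1-CKO mice, in which Ythdc1 was deleted conditionally (3 libraries, here CKO), and of Ythdc1flox/flox mice, which carry the floxed alleles (3 libraries, here flox control). Both groups received normal chow for 15 days, and the labels give neither the Cre driver, the cells in which deletion took place, the age nor the sex. Ythdc1 encodes a nuclear reader of N6-methyladenosine, a base modification of messenger RNA. The replicates are labelled as independent biological replicates.

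As background, the PGC-1 proteins bind no DNA themselves and raise transcription by docking on factors that do. They act through the estrogen-related receptors (ERR) and PPAR-alpha on genes of oxidative and fatty acid metabolism, and through NRF1 and the ETS factor GABP on genes such as Tfam, whose product packages mitochondrial DNA and starts its transcription. The adult heart, which relies on fatty acid oxidation, is known for high activity of this circuit.

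Between 17434296 and 19360428 reads per library fell on genes. Libraries correlated on the log2(FPKM + 1) scale with a Pearson r of 0.955 to 0.977 between CKO libraries, 0.978 to 0.984 between flox controls and 0.940 to 0.953 between the groups. CKO 3 alone held female-type sex-linked expression, with 12.4 FPKM of Xist against at most 0.0155 FPKM in the other 5 libraries. Ythdc1 itself measured 2.39, 2.57 and 2.34 FPKM in CKO 1, 2 and 3, against 4.31, 3.64 and 4.10 FPKM in flox controls 1, 2 and 3, which is 0.607 of the control mean over all exons. Defining cardiomyocyte markers were abundant in all 6 libraries, summing to 14377 to 18846 FPKM over 9 genes in CKO hearts and 18398 to 22219.6 FPKM in flox controls. All 9 had negative log2 fold changes (8 after quantile normalization), with a median of -0.29. Tnni3, Ryr2 and Pln were lower in every CKO library, and of these Tnni3 passed. None of the 9 passed with no filter, with the replicate number as a block, without CKO 2 or without any 1 flox control. Of the 9, 2 were called lower with the filter at 5 FPKM, quantile normalization or voom, and 3 with array weights. The 5 macrophage markers summed to 78.8 to 679 FPKM in CKO hearts and 99.1 to 197 FPKM in flox controls, and the highest sum was that of CKO 1. Of 5 atrial markers Sln was called lower and Nppa, which stressed ventricles also express, higher. Myl7 and Myl4 were lower in every CKO library without passing (means of 34.7 and 3.73 FPKM in CKO hearts, 151 and 21.3 FPKM in flox controls). Sln rested on as few as 4 reads, and no atrial marker was called lower with a smaller pseudocount, no filter or voom. Nor was any called lower without CKO 2 or 3 or flox control 1 or 3. With the filter at 5 FPKM or the replicate block 2 atrial markers were called lower, and 3 with array weights or without flox control 2. Nppa lost its call with no filter and without flox control 2 or 3. Of 6 endothelial markers Vwf was called higher, while Cdh5 and Tek were lower in every CKO library without passing. The call of Vwf was lost with no filter, with the replicate block and without CKO 3 or flox control 2. Fold changes were negative in 3 of these 6, with a median of -0.02. Of 6 pericyte or smooth muscle markers Abcc9 was called lower, and Kcnj8 was lower in every CKO library without passing. Abcc9 lost its call without CKO 3 or flox control 1 or 3, and in which cells it fell was not tested. Of 7 fibroblast markers none passed, although Postn, Col1a1, Col1a2 and Pdgfra were higher in every CKO library. Without CKO 1, 1 fibroblast marker was called higher. Of the adipocyte and skeletal muscle markers, 2 of 6 and 1 of 7 passed the filter and none was called. With voom, array weights or without CKO 1, 1 adipocyte marker was called higher. The 1 skeletal muscle gene was Ckm, at 191 to 506 FPKM over the 6 libraries. Myh1, Myh2 and Myh4 measured at most 0.0197 FPKM. Over all genes tested, 11.2% were called and the groups did not overlap in 34.3%. The part of these markers in the results below was not tested. In bulk tissue, fewer cells of a type and less RNA per cell cannot be told apart.

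The promoter windows of the 3 regulators that changed, Gabpa, Perm1 and Esrrb, and of Tfam and Ppara, the only regulators whose window held a searched motif, are shown first so that the genes can be seen beside their levels. Each runs 5′ to 3′ on the gene's own strand, from 250 bases before to 50 bases after a RefSeq start in GRCm38.p6, and capitals mark a motif match. The Gabpa window is chr16:84834874-84835173 (plus strand), that of Perm1 chr4:156215677-156215976 (plus), the first of 2 for Esrrb chr12:86360867-86361166 (plus), that of Tfam chr10:71237995-71238294 (minus) and that of Ppara chr15:85735526-85735825 (plus).
Gabpa: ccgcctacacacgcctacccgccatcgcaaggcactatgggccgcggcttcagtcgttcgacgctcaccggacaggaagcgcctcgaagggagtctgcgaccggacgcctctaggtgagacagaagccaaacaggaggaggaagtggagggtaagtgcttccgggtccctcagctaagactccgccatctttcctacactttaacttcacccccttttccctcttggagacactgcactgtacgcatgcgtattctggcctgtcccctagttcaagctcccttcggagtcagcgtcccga
Perm1: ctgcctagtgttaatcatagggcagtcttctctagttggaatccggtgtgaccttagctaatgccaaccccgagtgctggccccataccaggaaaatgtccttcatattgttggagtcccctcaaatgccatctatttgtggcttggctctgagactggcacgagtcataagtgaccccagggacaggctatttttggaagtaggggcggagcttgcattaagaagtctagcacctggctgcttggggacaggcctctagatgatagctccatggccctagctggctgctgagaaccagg
Esrrb: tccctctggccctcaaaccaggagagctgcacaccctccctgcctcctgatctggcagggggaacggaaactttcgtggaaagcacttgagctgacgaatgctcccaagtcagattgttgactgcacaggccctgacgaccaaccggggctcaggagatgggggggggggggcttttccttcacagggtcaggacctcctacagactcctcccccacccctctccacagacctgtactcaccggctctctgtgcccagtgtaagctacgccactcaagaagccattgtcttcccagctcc
Tfam: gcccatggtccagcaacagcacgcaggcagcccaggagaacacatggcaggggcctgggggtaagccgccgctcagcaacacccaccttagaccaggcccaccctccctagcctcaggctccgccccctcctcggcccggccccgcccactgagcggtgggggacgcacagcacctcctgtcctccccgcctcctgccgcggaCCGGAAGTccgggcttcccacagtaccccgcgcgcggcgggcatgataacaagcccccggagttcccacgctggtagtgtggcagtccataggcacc
Ppara: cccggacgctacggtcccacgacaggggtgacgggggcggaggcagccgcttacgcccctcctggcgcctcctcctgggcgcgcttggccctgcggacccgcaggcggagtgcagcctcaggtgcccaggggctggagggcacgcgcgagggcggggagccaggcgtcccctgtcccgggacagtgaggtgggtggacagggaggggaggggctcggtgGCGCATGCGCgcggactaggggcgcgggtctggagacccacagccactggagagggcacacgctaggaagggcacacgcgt

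The motifs were searched on both strands in 14 windows of 9 regulators; Ppargc1b was not searched. They were the ERR response element TNAAGGTCA, the NRF1 element (GCGCA, any base, GCGC), the ETS element CCGGAAGT that GABP binds, the cyclic AMP response element TGACGTCA and the PPAR direct repeat (AGGTCA repeated after 1 base of any kind). The last contains AGGTCA, the letters that also end the ERR element. The Tfam window held the ETS element 47 to 40 bases before the start, a match found in 3.89% of 32817 mouse windows of that length. The Ppara window held the NRF1 element 31 to 22 bases before the start, at a place that reads as a match on both strands, and 4.59% of all windows held it. No window of the other 7 regulators held any of the 5, and shares over all windows were 1.28% for the ERR element, 1.79% for the cyclic AMP element and 0.0396% for the PPAR repeat. The GC content was 52.3% in the Perm1 window, 59.3% in the Gabpa window and 74.7% in the Ppara window, beside a median of 52.7% over all windows. A match describes letters only.

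Among the 10 regulators, Gabpa and Perm1 fell and Esrrb rose in CKO hearts, while 7 did not pass. Over all 12144 genes tested, 5.69% were called higher and 5.49% lower (limma on log2(FPKM + 1), Benjamini-Hochberg adjusted p under 0.05), 11.2% in all. The median log2 fold change of the 10, given as CKO minus flox control on the log2(FPKM + 1) scale throughout, was -0.22, beside 0.01 over all genes tested. Groups did not overlap in 5 of the 10, 4 lower and 1 higher, and in 34.3% of all genes tested. Ppargc1a, the gene from which the family takes its name, showed no detectable difference at this spread.

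**Figure D1:**
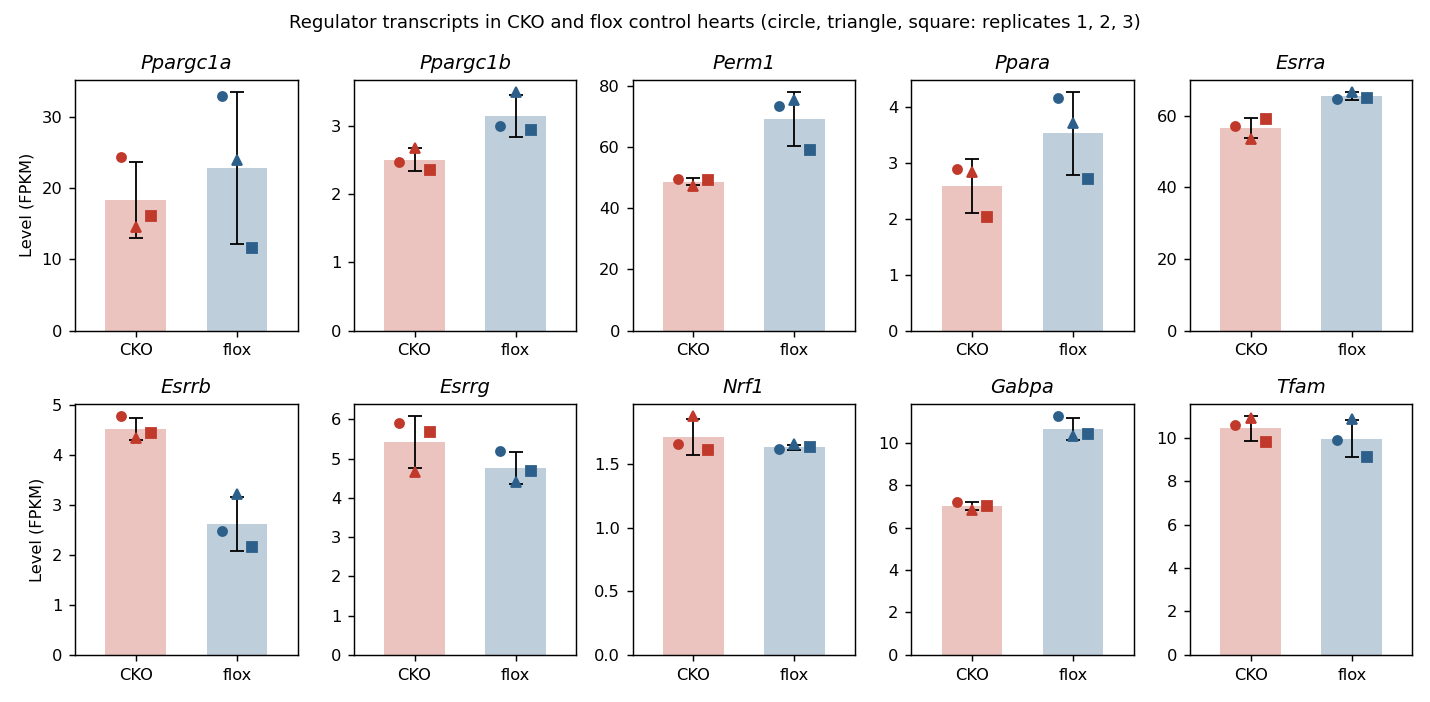
Level in FPKM (vertical axis) of each regulator in CKO and flox control hearts; points are libraries, bars are means and error bars are SD (n = 3 each). Gabpa and Perm1 lie lower and Esrrb higher in all CKO libraries, and Ppargc1a spreads between 11.6 and 32.9 FPKM within flox controls.

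**Figure D2:**
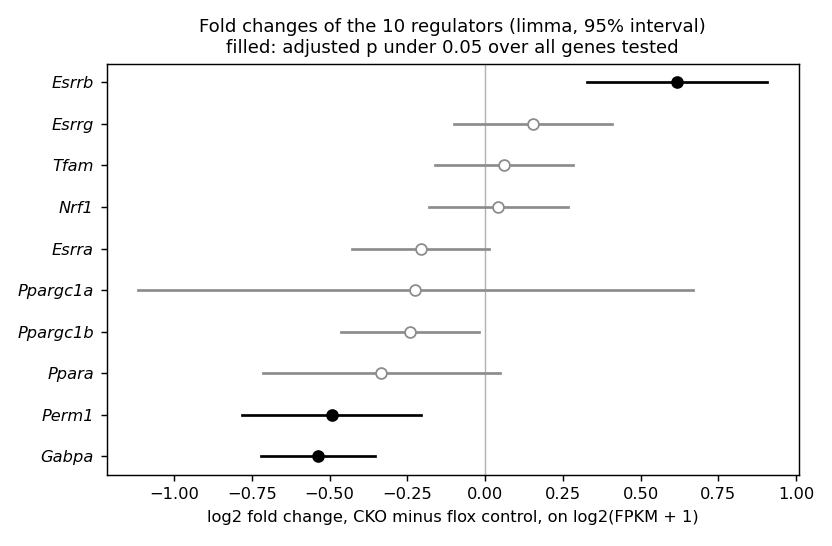
Log2 fold change of each regulator (horizontal axis, CKO minus flox control) with its 95% interval from limma; filled points passed at adjusted p under 0.05 over 12144 genes. The intervals of Gabpa, Perm1, Esrrb and Ppargc1b leave out 0, and all of these but Ppargc1b passed after adjustment.

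Of the 3 coactivator genes, Ppargc1a showed the widest spread. Ppargc1a (ENSMUSG00000029167, GRCm38 chromosome 5, 51454250 to 51567726, minus strand), which encodes PGC-1 alpha, measured 24.4, 14.5 and 16.0 FPKM in CKO 1, 2 and 3 and 32.9, 23.9 and 11.6 FPKM in flox controls 1, 2 and 3. The highest and the lowest of the 6 libraries were both flox controls, so the groups overlapped throughout. The means were 18.3 ± 5.33 FPKM in CKO hearts and 22.8 ± 10.7 FPKM in flox controls (SD, n = 3 each). The log2 fold change was -0.22 with a 95% interval of -1.12 to 0.67 (limma adjusted p = 0.747). Between 1529 and 3671 reads stood behind each value, so the spread was far wider than the counting error of at most 2.56%. The sign turned to 0.09 without flox control 1 (limma adjusted p = 0.92).

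Ppargc1b (ENSMUSG00000033871, chromosome 18, 61298136 to 61400431, minus strand), which encodes the related PGC-1 beta, was the scarcer coactivator. It measured 2.47, 2.68 and 2.35 FPKM in CKO 1, 2 and 3 and 2.99, 3.50 and 2.94 FPKM in flox controls 1, 2 and 3. Every CKO library lay below every flox control, with means of 2.50 ± 0.166 and 3.14 ± 0.306 FPKM. The log2 fold change of -0.24 (95% interval -0.46 to -0.02) did not pass after adjustment over all genes (limma adjusted p = 0.15). From 170 to 245 reads stood behind each value. Of the summed FPKM of both PGC-1 genes, Ppargc1b made up 9.20%, 15.6% and 12.8% in CKO 1, 2 and 3 and 8.33%, 12.8% and 20.2% in flox controls 1, 2 and 3, shares that overlapped and followed the swings of Ppargc1a.

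Perm1 (ENSMUSG00000078486, chromosome 4, 156215868 to 156221307, plus strand) encodes a muscle regulator that is itself induced by PGC-1 and ERR proteins. It fell to 49.5, 47.3 and 49.2 FPKM in CKO 1, 2 and 3, against 73.5, 75.3 and 59.1 FPKM in flox controls 1, 2 and 3. The CKO libraries were nearly equal, and the lowest flox control still exceeded them all. The means of 48.7 ± 1.19 and 69.3 ± 8.86 FPKM give a ratio of 0.702, and the log2 fold change was -0.49 (SE 0.12, 95% interval -0.78 to -0.21, limma adjusted p = 0.0473). This call sits just inside the threshold. It was lost without CKO 1, 2 or 3 (adjusted p = 0.0738, 0.114 and 0.108) and without flox control 1 or 2 (0.165 and 0.125), and also after rescaling to TPM (0.104) or with no filter (0.0759).

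Ppara (ENSMUSG00000022383, chromosome 15, 85734983 to 85802819, plus strand), whose NRF1-like letters are shown above, encodes the fatty acid-activated receptor PPAR-alpha. It measured 2.89, 2.83 and 2.03 FPKM in CKO 1, 2 and 3 and 4.16, 3.71 and 2.71 FPKM in flox controls 1, 2 and 3. Flox control 3 lay among the CKO libraries, and the log2 fold change of -0.33 (95% interval -0.72 to 0.05) did not pass (limma adjusted p = 0.233). With 141 to 270 reads per library, its counting error reached 8.42%, the widest of the 10 regulators.

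Of the 3 ERR genes only Esrrb passed, and it was the only regulator of the 10 called higher. Esrrb (ENSMUSG00000021255, chromosome 12, 86361117 to 86521628, plus strand) encodes ERR-beta, an orphan receptor best known from pluripotent stem cells and placenta. It rose to 4.78, 4.35 and 4.44 FPKM in CKO 1, 2 and 3, against 2.48, 3.22 and 2.17 FPKM in flox controls 1, 2 and 3. The lowest CKO library stood above the highest flox control. Means of 4.52 ± 0.229 and 2.62 ± 0.541 FPKM give a ratio of 1.72, and the log2 fold change was 0.62 (SE 0.12, 95% interval 0.33 to 0.91, limma adjusted p = 0.0265). The call was lost without CKO 2 or 3 (adjusted p = 0.0641 and 0.072), without flox control 1 or 3 (0.102 and 0.0779) and with no filter (0.0667). The gene rests on 254 to 519 reads per library.

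Esrra (ENSMUSG00000024955, chromosome 19, 6910977 to 6921813, minus strand) encodes ERR-alpha, the main ERR partner of PGC-1 in oxidative tissue, and was the most abundant ERR gene. It measured 57.2, 53.4 and 59.1 FPKM in CKO 1, 2 and 3 and 64.6, 66.7 and 64.8 FPKM in flox controls 1, 2 and 3. All CKO libraries were below all flox controls by a small margin, with means of 56.6 ± 2.90 and 65.4 ± 1.14 FPKM. The log2 fold change of -0.21 (95% interval -0.43 to 0.01) did not pass (limma adjusted p = 0.203). Its exons share 73 bases with Trmt112 on the opposite strand. Esrrg (ENSMUSG00000026610, chromosome 1, 187608791 to 188214885, plus strand), which encodes ERR-gamma, a receptor needed for the oxidative metabolism of the newborn mouse heart, measured 5.92, 4.67 and 5.68 FPKM in CKO 1, 2 and 3 and 5.19, 4.40 and 4.69 FPKM in flox controls 1, 2 and 3. The groups overlapped (log2 fold change 0.15, 95% interval -0.10 to 0.41, limma adjusted p = 0.401).

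As a share of the summed FPKM of the ERR genes, Esrrb made up 7.05%, 6.97% and 6.41% in CKO 1, 2 and 3 and 3.44%, 4.33% and 3.02% in flox controls 1, 2 and 3. Esrra still made up 84.2% to 85.5% in CKO hearts and 89.4% to 90.4% in flox controls. The sum itself was 62.4 to 69.2 FPKM in CKO hearts and 71.7 to 74.3 FPKM in flox controls. These shares are a description and were not tested. They depend on gene length: the deposited Esrra length is 2539 bases, while its merged exons in GENCODE M21 span 4387 bases. The same reads over that length would give 30.9 to 34.2 FPKM in CKO hearts and 37.4 to 38.6 FPKM in flox controls. Any further reads over the added bases are left out of these values, so the level under the longer annotation is not known.

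Gabpa (ENSMUSG00000008976, chromosome 16, 84834925 to 84863779, plus strand), the DNA-binding subunit of GABP, had the smallest adjusted p of the 10 regulators. It fell to 7.203, 6.85 and 7.03 FPKM in CKO 1, 2 and 3, against 11.3, 10.3 and 10.4 FPKM in flox controls 1, 2 and 3. Both groups were tight and well apart. Means of 7.03 ± 0.177 and 10.7 ± 0.524 FPKM give a ratio of 0.659, and the log2 fold change was -0.54 (SE 0.08, 95% interval -0.72 to -0.35, limma adjusted p = 0.0107). The call was lost without flox control 1 (0.0551) and after rescaling to TPM (0.0706), and was kept in the other 15 alternatives tried.

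The Gabpa value carries a limit of annotation. Its start lies within Atp5j, the gene of an ATP synthase subunit transcribed from the opposite strand, and 397 of its 5687 exon bases (6.98%) are shared with exons of Atp5j. Strand marking is not described, so reads over these bases cannot be assigned to either gene. Atp5j measured 131, 113 and 154 FPKM in CKO 1, 2 and 3 and 160, 169 and 148 FPKM in flox controls 1, 2 and 3, a log2 fold change of -0.27 that did not pass (limma adjusted p = 0.282). Its part in the Gabpa difference was not tested. The genes of the partner subunits of GABPA, singled out after the regulators' values were seen, did not pass: Gabpb1 had a log2 fold change of -0.18 (95% interval -0.48 to 0.13, limma adjusted p = 0.414). Gabpb2 had one of -0.03 (95% interval -0.26 to 0.20, limma adjusted p = 0.89).

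**Figure D3:**
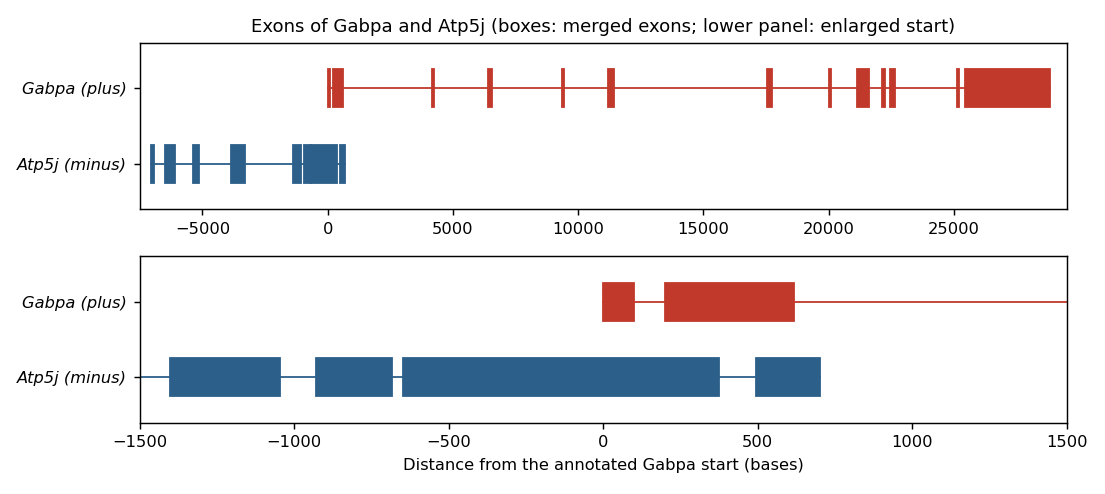
Merged exons (boxes) of Gabpa on the plus strand and Atp5j on the minus strand against the distance in bases from the annotated Gabpa start, whole above and enlarged below. The exons of both genes coincide over 397 bases near the Gabpa start, and the rest of Gabpa lies clear of Atp5j.

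Nrf1 (ENSMUSG00000058440, chromosome 6, 30047988 to 30153458, plus strand), which encodes the transcription factor that gave the NRF1 element its name, was the lowest of the 10. It measured 1.66, 1.88 and 1.62 FPKM in CKO 1, 2 and 3 and 1.62, 1.66 and 1.63 FPKM in flox controls 1, 2 and 3. The groups overlapped, and the 95% interval of its log2 fold change of 0.04 ran from -0.18 to 0.27 (limma adjusted p = 0.811). Tfam (ENSMUSG00000003923, chromosome 10, 71225464 to 71238280, minus strand), whose window holds the GABP-type element shown above, measured 10.6, 10.9 and 9.80 FPKM in CKO 1, 2 and 3 and 9.92, 10.9 and 9.12 FPKM in flox controls 1, 2 and 3. The groups overlapped here too, with a log2 fold change of 0.06 (95% interval -0.16 to 0.28, limma adjusted p = 0.718). At this spread no Tfam difference was detectable, in either direction.

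By level, Esrra, Perm1 and Ppargc1a were the 3 most abundant regulators in each group and Nrf1 the least. In CKO hearts the order was Esrra, Perm1, Ppargc1a, Tfam, Gabpa, Esrrg, Esrrb, Ppara, Ppargc1b and Nrf1, and the ranges overlapped only between Esrrg and Esrrb and between Ppara and Ppargc1b. In flox controls it was Perm1, Esrra, Ppargc1a, Gabpa, Tfam, Esrrg, Ppara, Ppargc1b, Esrrb and Nrf1. Ranges there overlapped between Perm1 and Esrra, Gabpa and Tfam, Ppara and Ppargc1b, Ppara and Esrrb, and Ppargc1b and Esrrb. The place of Esrra above Perm1 in CKO hearts depends on the length of Esrra. The same reads over its longer annotated length would put it below Perm1, but reads over the added bases are not known.

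The pathway gene whose log2(FPKM + 1) ran most like each regulator over the 6 libraries was looked up among 145 tested genes, as a description in which genotype itself contributes. Each r below is the highest of 145 over only 6 libraries, a choice that raises r by itself, and none was tested. Ppargc1a ran most like Pdk4 (Pearson r = 0.982), the kinase gene that restrains pyruvate oxidation. Pdk4 measured 342, 125 and 221 FPKM in CKO 1, 2 and 3 and 680, 344 and 87.2 FPKM in flox controls 1, 2 and 3. As with Ppargc1a, flox controls 1 and 3 were the extremes, and Pdk4 did not pass (log2 fold change -0.37, limma adjusted p = 0.793). Gabpa ran most like Lpin1 (r = 0.986), Esrra like Sdhd (0.975), Perm1 like Opa1 (0.975) and Esrrb like Prkag2 (0.890). Ppara ran most like Ncor1 (0.942), Esrrg like Stk11 (0.907), Ppargc1b like Mtfp1 (0.903), Nrf1 like Pprc1 (0.862) and Tfam like Slirp (0.820), whose value is uncertain because 93.9% of its exon bases are shared with Snw1 on the opposite strand.

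Around the regulators, 149 further genes of 9 pathway lists were read from the same fit, 145 of them tested. The lists were chosen with earlier results of these data known, and they share genes. Among these, Acadm and Pdk4 stand in both the ERR and the PPAR-alpha list, and Cycs stands in both the ERR list and that of NRF1 and GABP. In all, 1 rose and 19 fell, or 13.8% called against 11.2% of all genes (5.69% higher and 5.49% lower). Without 1 library at a time, 5 to 16 fell and 1 or 2 rose, with 9 lower without CKO 2, 5 without flox control 1, 7 without flox control 2 and 9 without flox control 3.

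All 21 tested ERR targets, regulators left out, had negative fold changes as reported, as against 20 after rescaling to TPM, quantile normalization or voom and 19 to 21 with 1 library left out. They had a median log2 fold change of -0.46 beside 0.01 over all genes. Of these 6 fell and 15 did not pass (28.6% called, beside 11.2% of all genes tested). Ckmt2, the mitochondrial creatine kinase gene, fell to 405, 379 and 546 FPKM in CKO 1, 2 and 3, against 1105, 1138 and 803 FPKM in flox controls 1, 2 and 3 (log2 fold change -1.20, limma adjusted p = 0.021). Its CKO libraries were all below the lowest flox control. Idh3b, an isocitrate dehydrogenase subunit gene, had a log2 fold change of -0.88 (limma adjusted p = 0.00859), Etfa, an electron transfer flavoprotein gene, one of -0.76 (0.0272) and Ndufs1, a complex I subunit gene, one of -0.72 (0.0259). Calls of Ckmt2, Ndufs1 and Etfa were lost without CKO 2 (0.0582, 0.0726 and 0.0667), flox control 1 (0.09, 0.104 and 0.11) or flox control 2 (0.0691, 0.071 and 0.084), and also without flox control 3 for Ndufs1 (0.0705) and without CKO 3 for Etfa (0.0535). Idh3b kept its call without each library. Idh3b, Ckmt2 and Ndufs1 share 0.146%, 5.65% and 6.05% of their exon bases with a gene on the opposite strand, which leaves their values uncertain to that extent. The targets called lower numbered 4, 1 and 5 without CKO 1, 2 and 3, and 1, 1 and 3 without flox controls 1, 2 and 3. They numbered 10 with quantile normalization, and 1 with no filter or with the replicate number as a block. The 9 cardiomyocyte markers also had a negative median, -0.29 as given above, and their part in these differences was not tested.

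Among the 17 tested NRF1 and GABP targets, 14 had negative fold changes, 2 fell (5 with quantile normalization) and none was called higher, with a median of -0.35. The share called as reported was 11.8%, near the 11.2% of all genes tested. Slc2a4, which encodes the glucose transporter that insulin brings to the cell surface, fell to 26.6, 27.9 and 32.7 FPKM in CKO 1, 2 and 3, against 74.7, 73.4 and 63.6 FPKM in flox controls 1, 2 and 3 (log2 fold change -1.25, limma adjusted p = 0.00467). Alas1, the first enzyme of heme synthesis, had a log2 fold change of -0.97 (limma adjusted p = 0.0473). Slc2a4 kept its call without each library, while Alas1 lost its call without CKO 1 or 2 or any 1 flox control (0.0526 to 0.154).

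Of 24 tested PPAR-alpha targets, 1 fell and 23 did not pass (4.17% called, beside 11.2% of all genes tested). There were 10 positive and 14 negative fold changes, with a median of -0.05. The median turned to 0.05 without CKO 2 and to 0.08 without flox control 1, each with 10 negative. It was 0.00 after rescaling to TPM, where the median of all genes tested was 0.05. Rescaling to TPM or voom gave 3 called lower and 1 higher, while no filter gave 0 lower and 1 higher. With the replicate number as a block none was called lower and 3 were called higher at a limma adjusted p under 0.05. Cpt2, the inner-membrane carnitine palmitoyltransferase gene, fell to 70.3, 47.7 and 65.7 FPKM in CKO 1, 2 and 3, against 129, 113 and 95.7 FPKM in flox controls 1, 2 and 3 (log2 fold change -0.88, limma adjusted p = 0.0316). That call was lost without CKO 2 or 3 (0.0611 and 0.0686) and without flox control 1, 2 or 3 (0.115, 0.091 and 0.0612). The value of its partner Cpt1b is uncertain, since 81.4% of the annotated exon bases of Cpt1b are shared with Gm44502 on the same strand.

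**Figure D4:**
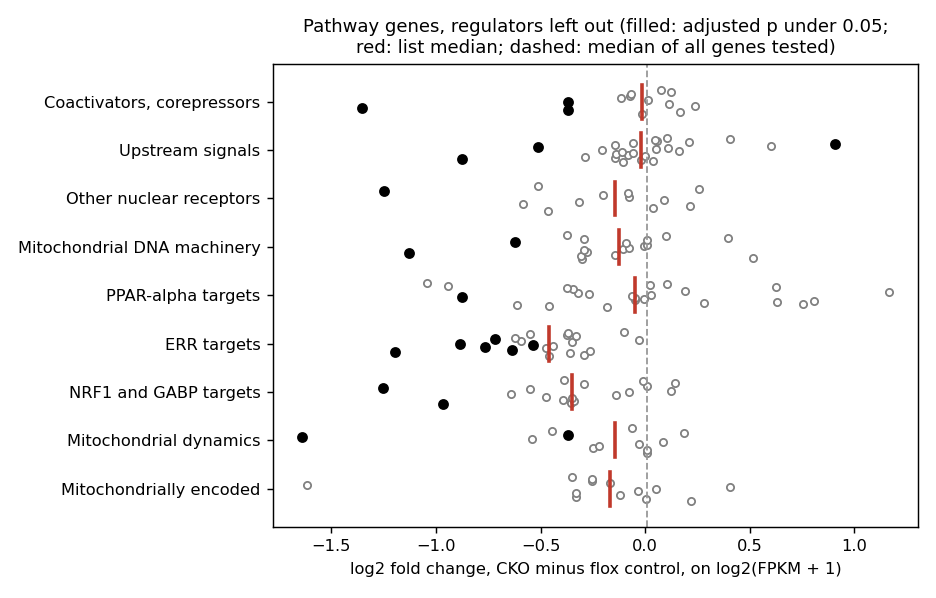
Log2 fold change (horizontal axis, CKO minus flox control) of every tested pathway gene in 9 lists, regulators left out. Filled points passed at adjusted p under 0.05, red bars are list medians and the dashed line is the median of all genes tested. A gene that stands in more than 1 list is drawn in each. The 21 ERR targets all lie left of 0 as reported (20 after rescaling to TPM, quantile normalization or voom, and 19 to 21 with 1 library left out), with a median of -0.46, while PPAR-alpha targets spread to both sides.

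In the machinery of mitochondrial DNA, 2 of 18 tested genes other than Tfam fell and none was called higher (11.1% called, beside 11.2% of all genes tested). Under other settings up to 2 were called higher: Lonp1, a mitochondrial protease gene, after rescaling to TPM, quantile normalization, voom or array weights, and Tk2, a mitochondrial thymidine kinase gene, after quantile normalization, array weights or without CKO 2. Mterf2, a mitochondrial transcription termination factor family gene, fell to 2.54, 2.55 and 3.15 FPKM in CKO 1, 2 and 3, against 8.001, 7.47 and 6.18 FPKM in flox controls 1, 2 and 3 (log2 fold change -1.13, limma adjusted p = 0.00569). The call held without each library in turn, with adjusted p of at most 0.0313, although 22.7% of its exon bases are shared with Tmem263 on the opposite strand. Tefm, the mitochondrial transcription elongation factor gene, had a log2 fold change of -0.62 (limma adjusted p = 0.015) and lost its call without CKO 3 or any 1 flox control (0.0516 to 0.0598). Polrmt, the mitochondrial RNA polymerase gene, chosen after its values were seen, measured 8.35 ± 0.917 FPKM in CKO hearts and 8.82 ± 0.0116 FPKM in flox controls (limma adjusted p = 0.654). None of the 13 mitochondrially encoded protein genes passed, and mt-Nd3 had a log2 fold change of -1.62 (limma adjusted p = 0.122, but 0.0114 without CKO 1). For mt-Nd6 it was -0.35 (limma adjusted p = 0.494). It was listed at 9553 to 18261 FPKM, and mt-Nd5, on the opposite strand, at 8625 to 15369 FPKM. The annotated genes share 2.70% of the mt-Nd6 bases. As strand marking is not described, reads over mt-Nd6 cannot be assigned to 1 strand, which leaves its value uncertain. The median of the 13 was -0.17, and it turned to 0.15 without CKO 2. Mitochondrially encoded genes took 20.7%, 14.4% and 19.6% of reads in CKO 1, 2 and 3 and 21.02%, 18.4% and 19.1% in flox controls 1, 2 and 3.

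Of 13 other coactivators and corepressors, 3 fell and none rose (23.1% called, beside 11.2% of all genes tested). Lpin1, which encodes a phosphatidate phosphatase that also coactivates PPAR-alpha with PGC-1 alpha, fell to 6.19, 4.06 and 4.74 FPKM in CKO 1, 2 and 3, against 16.4, 14.0 and 12.4 FPKM in flox controls 1, 2 and 3 (log2 fold change -1.36, limma adjusted p = 0.0067). This call held without each library in turn, with adjusted p of at most 0.0352. Hdac3, a deacetylase of corepressor complexes, and Ncoa2, a nuclear receptor coactivator gene, each had a log2 fold change of -0.37 (limma adjusted p = 0.0453 and 0.0467), and neither stayed called once any 1 library was left out.

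Of 25 upstream signalling genes, 1 rose, 2 fell and 22 did not pass (12% called, beside 11.2% of all genes tested). Prkag2, a regulatory subunit gene of AMP-activated kinase, rose to 12.9, 11.98 and 15.2 FPKM in CKO 1, 2 and 3, against 7.03, 6.35 and 6.53 FPKM in flox controls 1, 2 and 3 (log2 fold change 0.91, limma adjusted p = 0.00667). Every CKO library was above every flox control, and the call held without each library in turn; 12.3% of its exon bases are shared with an antisense gene of at most 0.545 FPKM. Prkab1, another subunit gene of that kinase, fell (log2 fold change -0.51, limma adjusted p = 0.0132), though not without flox control 1 or 3 (0.0519 and 0.0584). Fbxw7, a ubiquitin ligase gene whose product marks PGC-1 alpha for degradation, fell to 5.93, 4.32 and 4.55 FPKM in CKO 1, 2 and 3, against 9.59, 8.95 and 10.96 FPKM in flox controls 1, 2 and 3 (log2 fold change -0.87, limma adjusted p = 0.012), and lost its call without flox control 1 (0.0535).

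Of 12 other nuclear receptors and partners, 1 fell (8.33% called, beside 11.2% of all genes tested). Rxrg, which encodes a retinoid X receptor, the type of protein that pairs with PPARs on DNA, measured 14.0, 5.50 and 9.90 FPKM in CKO 1, 2 and 3, against 23.5, 24.8 and 21.4 FPKM in flox controls 1, 2 and 3 (log2 fold change -1.25, limma adjusted p = 0.0389). Its call was lost without CKO 3 (0.0904) or flox control 1, 2 or 3 (0.125, 0.113 and 0.0988). Of 12 genes of mitochondrial fusion and fission, 2 fell (16.7% called). Mtfp1, a fission gene, had a log2 fold change of -1.64 (limma adjusted p = 0.00403) and a call that held without each library. Mtfr1 had one of -0.37 (limma adjusted p = 0.0273), and its call did not hold without CKO 2 or 3 or any 1 flox control (0.0563 to 0.109).

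**Figure D5:**
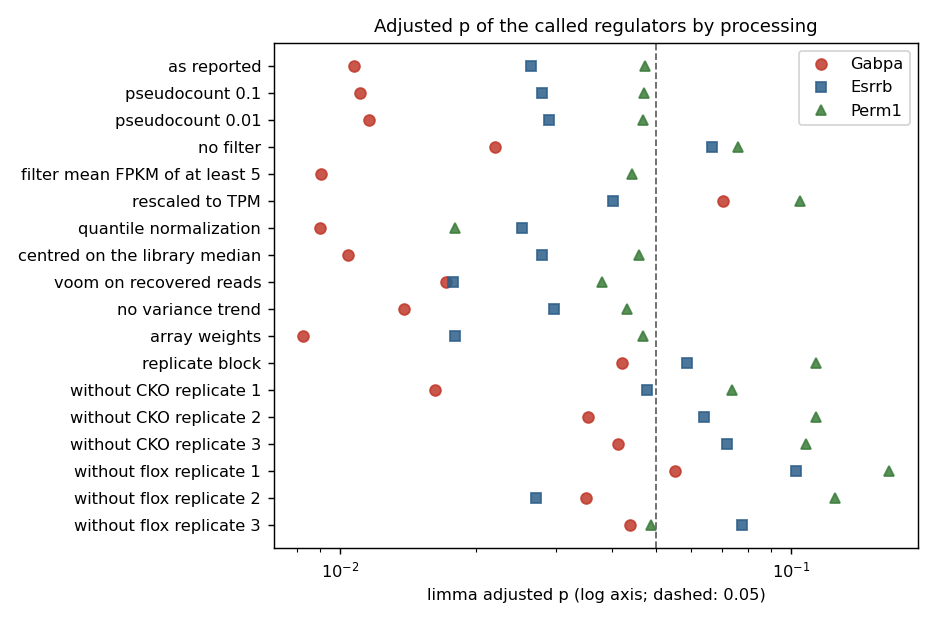
Limma adjusted p (horizontal axis, log scale) of Gabpa, Esrrb and Perm1 as reported and under each alternative; the dashed line is 0.05, and Esrrb was not tested with the filter at 5 FPKM. Gabpa stays left of the line except without flox control 1 and after rescaling to TPM, while Perm1 crosses it in 8 alternatives and Esrrb in 6.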

How the data were processed

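Poly-T selected messenger RNA of 6 mouse hearts was read from both ends, per the labels' protocols. The authors deposited FPKM for 54532 genes with gene lengths. The submitters' processing notes name CASAVA, HISAT2 2.0.5, featureCounts 1.5.0-p3, DESeq2 1.20.0 and GRCm38.p6, without saying which step made which value. In 100% of values FPKM times gene length was a whole multiple (tolerance 0.001) of what 1 read is worth in that library, which returned the reads. The 10 regulators, pathway lists and tests were chosen with earlier results of these data known.

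The main test, limma 3.58.1 run under R 4.3.3, took log2(FPKM + 1) of the 12144 genes whose mean reached 1 FPKM (variance trend, genotype only, two-sided, Benjamini-Hochberg over all genes tested). Fold changes on this scale understate those of low genes, and ratios are of mean FPKM. The procedure was tested on simulated data. Named are all 10 regulators, Ythdc1, up to 4 called genes per list with the smallest adjusted p (2 where none was called), and the most similar pathway gene of each regulator; genes named beyond this were chosen after their values were seen. Exon overlaps came from GENCODE M21, in which the bounds of all 10 regulators were identical. Promoter windows came from RefSeq (GRCm38.p6) for 9 regulators, and Ppargc1b was not searched. Alternatives covered pseudocount, filter, scaling, voom on recovered reads, variance settings, a replicate block and each library left out. Counting errors cover counting only. Python 3.11.15 made tables and figures.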

Additional observations from a re-analysis of the deposited data

How the results depend on the processing

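Regulators called higher numbered 1 as reported and 0 with no filter, with the filter at 5 FPKM (where Esrrb, Ppara, Ppargc1b and Nrf1 were not tested) and with the replicate number as a block; they numbered 0 to 1 when 1 library was left out. Regulators called lower numbered 2 as reported, 1 with no filter, 0 after rescaling to TPM, 1 with the replicate block and 0 to 2 with 1 library left out. Pathway genes called higher numbered 1 as reported, 2 with no filter or the filter at 5 FPKM, 3 after rescaling to TPM, quantile normalization or array weights, 4 with voom or the replicate block, and 1 to 2 with 1 library left out. Pathway genes called lower numbered 19 as reported, 9 with no filter, 7 with the replicate block and 5 to 16 with 1 library left out. Over the whole table, 691 genes were called higher as reported, 388 with no filter, 367 with the replicate block and 160 to 807 with 1 library left out. Called lower were 667, and 410 with no filter, 439 after rescaling to TPM, 348 with the replicate block and 155 to 683 with 1 library left out.

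The log2 fold change of Ppargc1a ran from -0.62 to 0.0877 with 1 library left out, reversing without flox control 1, and no other regulator changed direction in any of these alternatives. Same-numbered libraries showed correlations of their deviations from the group mean of 0.139, 0.0597 and -0.00548 for numbers 1, 2 and 3, so the numbers were not taken as pairs. With the replicate block the log2 fold changes were those reported, Gabpa kept its call (limma adjusted p = 0.042), and Esrrb (0.0587) and Perm1 (0.113) did not. Of the pathway genes named with a call, Ckmt2, Ndufs1, Etfa, Alas1, Cpt2, Rxrg, Hdac3 and Ncoa2 lost it with no filter, and Tefm, Mtfr1, Prkab1, Hdac3 and Ncoa2 lost it after rescaling to TPM. The cause of these shifts was not tested, except that fits without 1 library or with the block have fewer residual degrees of freedom and that 27031 genes were tested with no filter and 14557 after rescaling to TPM. Depth limits Ppara, Ppargc1b, Esrrb and Nrf1 most, with counting errors of up to 8.42% in the library with the fewest reads.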

Other observations

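Fgf21, the gene of a hormone induced by PPAR-alpha in liver, fell under the filter; it was singled out after its values were seen. It measured 1.11, 0.811 and 1.04 FPKM in CKO 1, 2 and 3, from 19, 15 and 18 reads, and was listed at 0 in all 3 flox controls. With no filter its log2(FPKM + 1) difference was 0.99 (limma adjusted p = 0.0132), a size that depends on the pseudocount.

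Lonp1, the gene of the mitochondrial matrix protease that degrades TFAM, was also singled out after its values were seen. It measured 45.5, 46.4 and 61.4 FPKM in CKO 1, 2 and 3 and 37.1, 36.5 and 32.1 FPKM in flox controls 1, 2 and 3. Every CKO library was above every flox control, and the difference did not pass (log2 fold change 0.51, SE 0.14, limma adjusted p = 0.0659), though it did after rescaling to TPM (0.0415), quantile normalization (0.039), voom (0.0198) or array weights (0.0473). Over all 17 alternatives the adjusted p ran from 0.0198 to 0.192.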
